A study of Mus musculus with 14 samples.

Results

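The genes described here encode the enzymes that remove superoxide and peroxides, the proteins that keep glutathione and thioredoxin reduced, the regulators of these genes, and the metal-binding metallothioneins. Membership was set by gene name and function and by no measured value, although the list was proposed with earlier results of these data known. It holds 34 genes, of which 31 were measured on the arrays by 64 probe sets that carry a single gene symbol, out of 18193 genes measured in this way. The arrays were Affymetrix mouse expression arrays, 14 in all, hybridised with total RNA of brain tissue or of the vastus lateralis, a muscle of the quadriceps. The sample titles say brain tissue and name no brain region. The mice carried a deletion of the Prader-Willi syndrome imprinting centre (PWS-IC del), the control element of a cluster of imprinted genes on chromosome 7, or were wild-type littermates of like age. Every mouse had the same background, an F1 hybrid between FVB and B6. There were 4 groups: PWS-IC del brain (3 arrays), wild-type brain (4 arrays), PWS-IC del muscle (3 arrays) and wild-type muscle (4 arrays). The labels call the arrays of a group biological replicas and give no age in days, no sex and no statement that a brain and a muscle of the same number came from 1 mouse. The RNA came from tissue and not from sorted cells, so each value is an average over many cell types. Fewer cells of a type and less RNA per cell cannot be told apart.

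Superoxide, a by-product of mitochondrial respiration, is turned into hydrogen peroxide by the superoxide dismutases, and hydrogen peroxide is then removed by catalase, the glutathione peroxidases and the peroxiredoxins. Most members of the last 2 families depend on glutathione, thioredoxin and the reductases that restore them with NADPH. Many of these genes are controlled by the transcription factor NRF2 (gene Nfe2l2), which KEAP1 holds at a low level until electrophiles or oxidants release it. Metallothioneins are small cysteine-rich proteins that bind zinc and copper, are switched on by the metal sensor MTF1 and by glucocorticoids, and in brain are made largely by astrocytes and, for Mt3, also by neurons.

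The deletion was visible in the arrays. Snhg14, the long transcript that hosts the small nucleolar RNAs of the region, lay at log2 7.71 to 8.29 in PWS-IC del brain and 11.26 to 12.01 in wild-type brain, and at 5.92 to 6.23 in PWS-IC del muscle and 8.16 to 8.41 in wild-type muscle. Its differences were -3.63 ± 0.21 and -2.20 ± 0.10 (SE), with limma adjusted p = 1.88e-04 in brain and 1.53e-04 in muscle. Ndn, also of the region, gave -4.13 ± 0.26 in brain and -1.27 ± 0.11 in muscle (limma adjusted p = 2.77e-04 and 0.00439). Snrpn gave -4.87 ± 0.29 in brain (adjusted p = 2.22e-04), but its muscle difference of -0.39 ± 0.14 did not pass (adjusted p = 0.326). Snap25, a neuronal gene, lay at 13.66 to 13.83 in the 7 brain arrays, and Ckm, Acta1 and Myh4, genes of skeletal muscle fibres, at 13.60 to 13.98 in the 7 muscle arrays. Median intensity was 142.0 to 170.1 in brain and 88.7 to 96.4 in muscle, and correlations between arrays of a tissue were 0.952 to 0.992 in brain and 0.981 to 0.991 in muscle. The brain arrays stood further apart: the first principal component, 51.9% of the variance in brain, placed the PWS-IC del arrays at 14.98, 25.87 and -7.15 and the wild-type arrays at -36.46, -22.62, 11.09 and 14.29. Wild-type brain 1 and 2 lay at one end and PWS-IC del brain 2 at the other. In muscle the first component, 42.4% of the variance, placed the PWS-IC del arrays at 18.31, 22.41 and -12.93 and the wild-type arrays at -19.17, 12.61, -8.46 and -12.78. The brain arrays also differed in markers of brain regions: 5 of 5 cerebellar genes summed to intensities of 6674, 124589 and 6071 in PWS-IC del arrays, against 5087, 5215, 14690 and 6828 in wild-type arrays. PWS-IC del brain 2 and, far less, wild-type brain 3 thus stood apart from the other brain arrays, and brain results are also given without both. None of the measured members lies on chromosome 7. All levels below are log2(intensity + 16), and every difference is PWS-IC del minus wild type unless it is said to be brain minus muscle.

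No antioxidant or metallothionein gene passed the test between genotypes in either tissue. In brain, 0 of 31 members had an adjusted p under 0.05 (limma, Benjamini-Hochberg over 13645 genes), where 0.066% of all genes tested did; 2 members had an unadjusted p under 0.05, against 8.2% of all genes. In muscle, 0 of 31 passed, where 0.117% of all genes did, and 6 members had an unadjusted p under 0.05, against 11.9% of all genes. Most differences had the same sign: 29 of 31 were positive in brain, where 61.9% of all genes were, and 27 of 31 in muscle, where 54.1% were. The median member difference was 0.14 in brain and 0.11 in muscle, beside medians of 0.06 and 0.02 over all genes. In 3 members of each tissue the PWS-IC del arrays all lay above the wild-type arrays, which 5.78% of all genes did in brain and 6.31% in muscle. None lay wholly below, against 2.87% and 5.86% of all genes. The brain members without overlap were Gpx7, Mt3 and Msra, and the muscle members were Mt2, Hmox1 and Gsr.

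**Figure D1:**
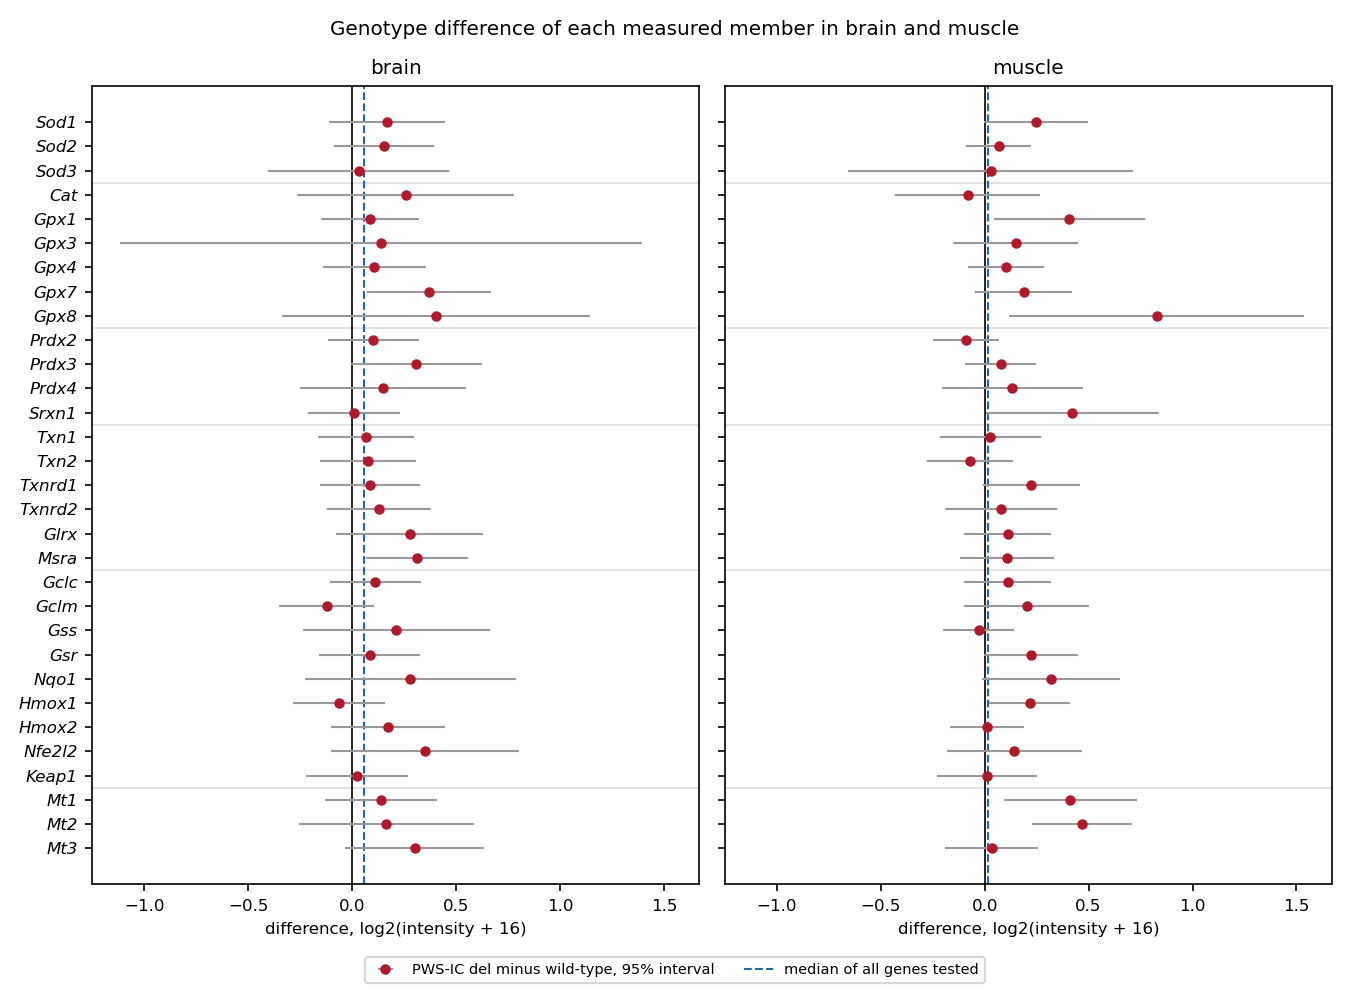
Difference between PWS-IC del and wild type on the log2 scale (x axis) for each measured member (rows), in brain and in muscle, with 95% confidence intervals from limma (3 PWS-IC del and 4 wild-type arrays per tissue) and a dashed line at the median of all genes. Points lie mostly right of 0, with medians of 0.14 in brain and 0.11 in muscle, and no member passed an adjusted p of 0.05.

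The members varied together between arrays of 1 genotype. In brain, 27, 28 and 13 of the 31 members lay above their mean over the 7 brain arrays in the 3 PWS-IC del arrays, against 1, 7, 12 and 28 in the 4 wild-type arrays. Thus PWS-IC del 3 was lower than the other PWS-IC del arrays for most members, wild-type 4 resembled them, and wild-type 1 was low for nearly every member. Without wild-type brain 1 and 2, 19 of 31 brain differences were positive, with a median of 0.04 beside 0.03 for all genes. Without wild-type brain 1 and 3, 24 were positive, with a median of 0.10 beside 0.02. Without PWS-IC del brain 2 and wild-type brain 3, the arrays with the most cerebellar signal, 26 were positive, with a median of 0.10 beside 0.03, and 0 passed the test. In that fit Msra, Gpx7, Mt3 and Prdx3 differed by 0.29, 0.32, 0.30 and 0.28, and Sod1, Mt1 and Mt2 by 0.05, 0.07 and 0.07. In muscle, 29, 23 and 10 of the 31 members lay above their muscle mean in the PWS-IC del arrays, against 12, 13, 13 and 8 in the wild-type arrays. Without PWS-IC del muscle 1, the highest array, 21 of the 31 muscle differences were positive.

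**Figure D2:**
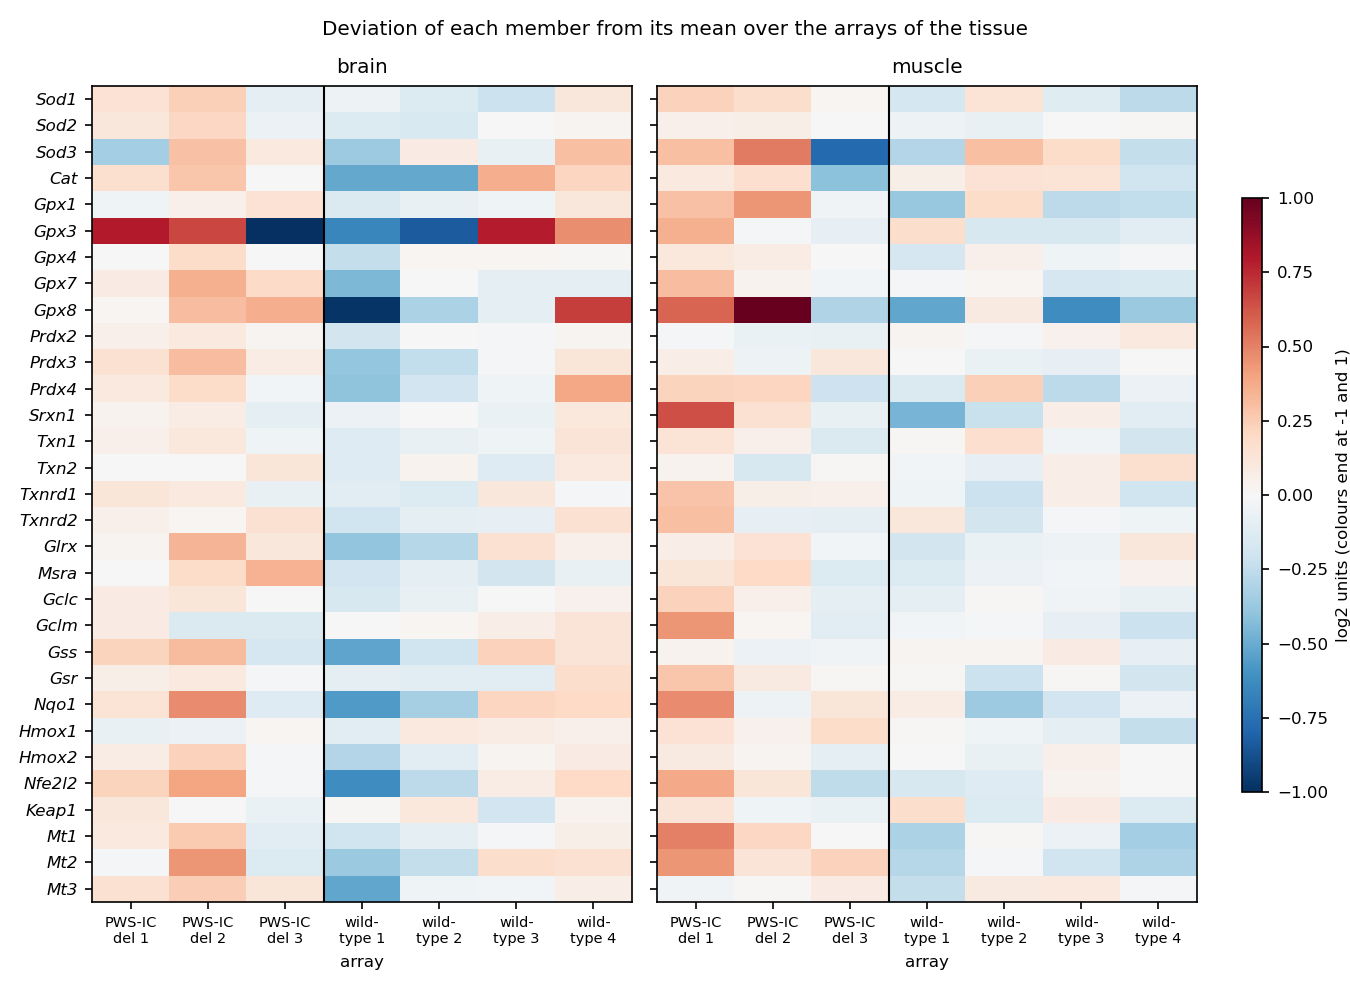
Each member's deviation from its mean over the 7 arrays of a tissue (colour, log2 units), with members as rows and arrays as columns, PWS-IC del arrays left of wild-type arrays. Wild-type brain 1 was above the mean for 1 of 31 members, and PWS-IC del muscle 1 was above it for 29 of 31.

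Among the metallothioneins, Mt1 and Mt2, the broadly expressed and inducible pair, and Mt3, the form first known from brain, lie side by side on chromosome 8. Their promoters are shown because metals control this family through a short repeated element. Each sequence is the 250 bases before the RefSeq transcript start on the plus strand of GRCm38.p6, and capitals mark the core of the metal response element, to which MTF1 binds (TGCACNC or TGCGCNC, either strand, overlaps counted).
Mt1, chr8:94178839-94179088: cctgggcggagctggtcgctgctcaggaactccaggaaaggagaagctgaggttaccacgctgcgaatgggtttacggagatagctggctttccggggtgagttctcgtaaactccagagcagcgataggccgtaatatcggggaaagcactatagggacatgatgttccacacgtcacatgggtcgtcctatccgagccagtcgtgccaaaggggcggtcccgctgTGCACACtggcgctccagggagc
Mt2, chr8:94172368-94172617: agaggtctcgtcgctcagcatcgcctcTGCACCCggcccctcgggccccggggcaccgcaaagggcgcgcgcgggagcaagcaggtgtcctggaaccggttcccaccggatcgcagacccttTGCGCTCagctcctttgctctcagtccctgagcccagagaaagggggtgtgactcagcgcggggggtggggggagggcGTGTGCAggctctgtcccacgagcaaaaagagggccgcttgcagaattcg
Mt3, chr8:94152357-94152606: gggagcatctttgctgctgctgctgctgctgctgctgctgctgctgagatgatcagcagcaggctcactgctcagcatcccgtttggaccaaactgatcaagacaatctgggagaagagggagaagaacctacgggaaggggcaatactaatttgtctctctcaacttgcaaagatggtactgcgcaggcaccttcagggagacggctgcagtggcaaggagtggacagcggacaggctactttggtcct
With the 50 bases after the start included, the core occurred 3 times for Mt1, 4 times for Mt2 and 1 time for Mt3. Before the start alone it occurred 1, 3 and 0 times. The counts thus depend on where each annotated start falls and do not compare the whole promoters of the 3 genes. Over 32851 RefSeq promoter windows of 300 bases, 25.7% held at least 1 core and 1.97% held 3 or more. These are matches of letters and not sites shown to be bound.

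In muscle, Mt2 had the smallest p of all members. Mt2 stood at 9.13, 8.82 and 8.92 in PWS-IC del muscle, against 8.41, 8.68, 8.49 and 8.39 in wild-type muscle. The groups did not overlap, with means of 8.96 ± 0.16 and 8.49 ± 0.13 (SD, n = 3 and 4). The difference was 0.47 ± 0.11 (SE; 95% interval 0.23 to 0.71), or 1.38-fold, with unadjusted p = 0.0020 and adjusted p = 0.164 by limma. Mt1 stood at 10.65, 10.35 and 10.14 in PWS-IC del muscle, against 9.83, 10.16, 10.08 and 9.80 in wild-type muscle. Only PWS-IC del 3 and wild-type 2 crossed. The Mt1 difference was 0.41 ± 0.14 (SE; interval 0.09 to 0.73), or 1.33-fold, with adjusted p = 0.311, and a second Mt1 probe set gave 0.39. Without PWS-IC del muscle 1, the highest array for both, Mt1 was 0.28 and Mt2 was 0.38. Whether the Mt1 and Mt2 probe sets each detect the RNA of the other was not tested. Mt3 in muscle gave 9.83, 9.88 and 9.95 in PWS-IC del mice, against 9.63, 9.96, 9.96 and 9.85 in wild-type mice. Its groups overlapped fully, with a difference of 0.03 ± 0.10 (SE) and adjusted p = 0.924.

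In brain, Mt1 stood at 13.13, 13.29 and 12.92 in PWS-IC del mice, against 12.84, 12.94, 13.02 and 13.09 in wild-type mice, and the groups overlapped. Mt2 stood at 11.97, 12.43 and 11.85 in PWS-IC del brain, against 11.62, 11.75, 12.17 and 12.14 in wild-type brain, again with overlap. Their differences were 0.14 ± 0.12 and 0.16 ± 0.19 (SE), with adjusted p = 0.642 and 0.723. Mt3 stood at 12.00, 12.09 and 11.97 in PWS-IC del brain, against 11.33, 11.81, 11.83 and 11.92 in wild-type brain. The 3 PWS-IC del arrays lay just above the highest wild-type array, and wild-type 1 was the lowest. The Mt3 difference of 0.30 ± 0.15 (SE; interval -0.03 to 0.63) had an adjusted p of 0.556 and was 0.15 without wild-type brain 1 and 2.

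**Figure D3:**
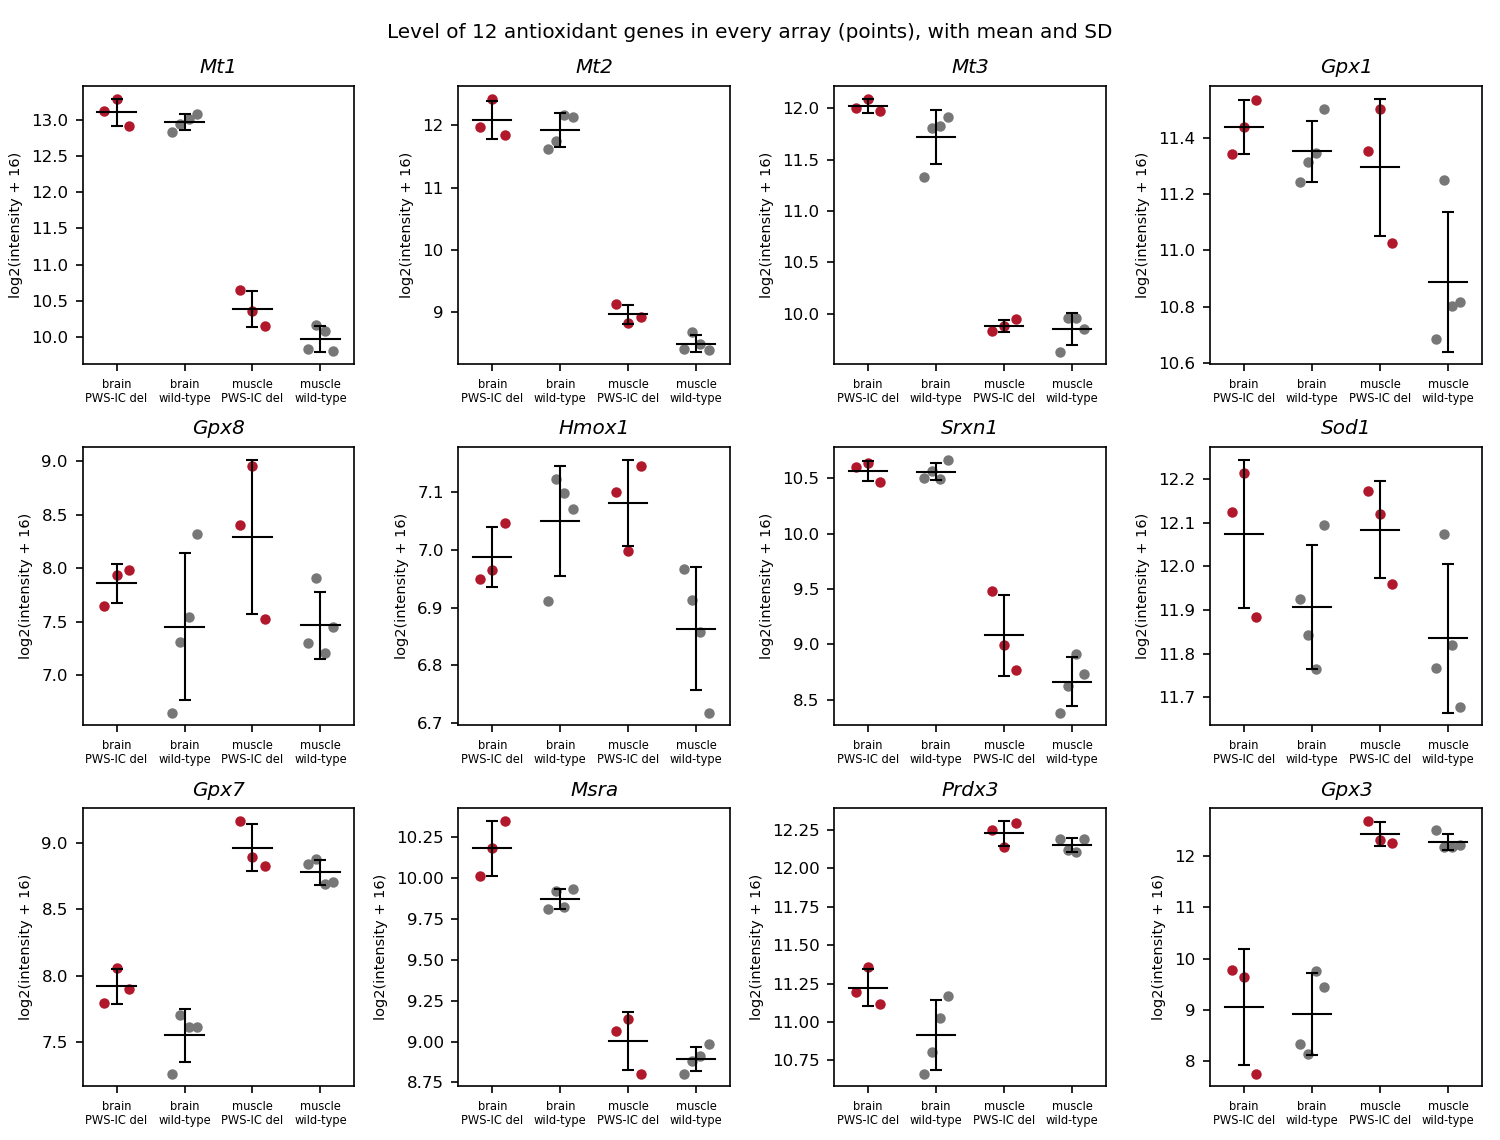
Level in every array, log2(intensity + 16), for 12 of the members, with PWS-IC del left of wild type in each tissue, long bars at the group means and capped bars for the SD. Mt2 in muscle lay between 8.82 and 9.13 in PWS-IC del arrays and between 8.39 and 8.68 in wild-type arrays, and Gpx3 in brain lay between 7.75 and 9.77 in PWS-IC del arrays and between 8.14 and 9.76 in wild-type arrays.

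The first enzymes in the removal of superoxide are the dismutases. Sod1, the copper and zinc enzyme of the cytosol, stood at 12.12, 12.21 and 11.88 in PWS-IC del brain, against 11.93, 11.84, 11.76 and 12.10 in wild-type brain. In muscle it stood at 12.17, 12.12 and 11.96 in PWS-IC del mice, against 11.77, 12.08, 11.82 and 11.68 in wild-type mice. The groups overlapped in both tissues, with differences of 0.17 ± 0.12 (adjusted p = 0.606) and 0.25 ± 0.11 (adjusted p = 0.422). The 5 Sod1 probe sets ranged in difference between -0.32 and 0.30 in brain and between -0.11 and 0.25 in muscle. Sod2, the manganese enzyme of mitochondria, was nearly level in muscle, at 12.30, 12.30 and 12.25 in PWS-IC del mice, against 12.19, 12.17, 12.25 and 12.26 in wild-type mice. In brain Sod2 stood at 11.36, 11.45 and 11.19 in PWS-IC del mice, against 11.11, 11.09, 11.24 and 11.28 in wild-type mice. Its differences of 0.07 ± 0.07 in muscle and 0.15 ± 0.11 in brain had adjusted p = 0.720 and 0.596.

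Sod3, the enzyme secreted to the cell surface and matrix, stood at 9.38, 9.61 and 8.31 in PWS-IC del muscle, against 8.79, 9.39, 9.27 and 8.85 in wild-type muscle. PWS-IC del 3 was the lowest of the 7 arrays, and the difference was 0.03 ± 0.30 (SE; interval -0.66 to 0.71; adjusted p = 0.978). In brain Sod3 stood at 7.78, 8.41 and 8.22 in PWS-IC del mice, against 7.75, 8.20, 8.05 and 8.42 in wild-type mice, a difference of 0.03 ± 0.19 (adjusted p = 0.948). Cat, the peroxisomal catalase, stood at 10.69, 10.81 and 10.54 in PWS-IC del brain, against 10.03, 10.02, 10.90 and 10.75 in wild-type brain. The PWS-IC del arrays lay above wild-type 1 and 2 and overlapped the range of wild-type 3 and 4. The difference was 0.26 ± 0.23 (SE; adjusted p = 0.653), and without wild-type brain 1 and 2 it was -0.14. In muscle Cat stood at 11.58, 11.65 and 11.07 in PWS-IC del mice, against 11.54, 11.62, 11.62 and 11.28 in wild-type mice, a difference of -0.08 ± 0.15 (adjusted p = 0.862).

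Most glutathione peroxidases use glutathione to reduce peroxides. Gpx8, an enzyme of the endoplasmic reticulum membrane, had the largest difference of any member in muscle. It stood at 8.41, 8.95 and 7.53 in PWS-IC del muscle, against 7.30, 7.91, 7.21 and 7.45 in wild-type muscle. PWS-IC del 1 and 2 exceeded every wild-type array and PWS-IC del 3 did not. The difference was 0.83 ± 0.31 (SE; interval 0.12 to 1.54), or 1.77-fold, with adjusted p = 0.349, and it was 0.50 without PWS-IC del muscle 2. In brain Gpx8 stood at 7.65, 7.94 and 7.99 in PWS-IC del mice, against 6.65, 7.31, 7.54 and 8.32 in wild-type mice, with a difference of 0.40 ± 0.33 (adjusted p = 0.629). Gpx1, the main selenium-dependent peroxidase of the cytosol, stood at 11.35, 11.50 and 11.03 in PWS-IC del muscle, against 10.68, 11.25, 10.80 and 10.82 in wild-type muscle. Wild-type 2 overlapped the PWS-IC del arrays, and the difference was 0.41 ± 0.16 (SE; interval 0.04 to 0.77; adjusted p = 0.363). In brain Gpx1 stood at 11.34, 11.44 and 11.53 in PWS-IC del mice, against 11.24, 11.31, 11.35 and 11.50 in wild-type mice, a difference of 0.09 ± 0.10 (adjusted p = 0.739).

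Gpx7, another peroxidase of the endoplasmic reticulum, stood at 7.79, 8.06 and 7.90 in PWS-IC del brain, against 7.26, 7.70, 7.62 and 7.62 in wild-type brain. The groups did not overlap. The difference was 0.37 ± 0.13 (SE; interval 0.07 to 0.67), or 1.29-fold, with adjusted p = 0.556, and it was 0.30 without wild-type brain 1 and 2. In muscle Gpx7 stood at 9.17, 8.89 and 8.83 in PWS-IC del mice, against 8.84, 8.88, 8.69 and 8.70 in wild-type mice, with overlap and a difference of 0.19 ± 0.10 (adjusted p = 0.512). Gpx3, the peroxidase secreted into plasma, varied most between brain arrays of a genotype, at 9.77, 9.64 and 7.75 in PWS-IC del brain, against 8.32, 8.14, 9.76 and 9.44 in wild-type brain. High and low arrays occurred in both genotypes, and the difference of 0.14 ± 0.55 (SE; interval -1.12 to 1.40; adjusted p = 0.923) was -0.54 without wild-type brain 1 and 2. In muscle Gpx3 stood at 12.69, 12.32 and 12.26 in PWS-IC del mice, against 12.52, 12.18, 12.18 and 12.22 in wild-type mice, a difference of 0.15 ± 0.13 (adjusted p = 0.677). Gpx4, which reduces lipid hydroperoxides in membranes, differed by 0.11 in brain (adjusted p = 0.698) and by 0.10 in muscle (adjusted p = 0.636).

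The peroxiredoxins reduce peroxides with electrons that come mostly from thioredoxin. Prdx3, the peroxiredoxin of mitochondria, stood at 11.20, 11.35 and 11.12 in PWS-IC del brain, against 10.66, 10.80, 11.03 and 11.17 in wild-type brain. Only wild-type 4 reached the PWS-IC del range, and the difference was 0.31 ± 0.14 (SE; interval -0.01 to 0.62; adjusted p = 0.556), or 0.13 without wild-type brain 1 and 2. In muscle Prdx3 stood at 12.25, 12.14 and 12.30 in PWS-IC del mice, against 12.19, 12.12, 12.11 and 12.19 in wild-type mice, a difference of 0.08 ± 0.07 (adjusted p = 0.709). Prdx2, a cytosolic peroxiredoxin, stood at 11.60, 11.54 and 11.54 in PWS-IC del muscle, against 11.64, 11.59, 11.65 and 11.70 in wild-type muscle. Its muscle difference of -0.09 ± 0.07 (adjusted p = 0.638) was the lowest of any member there. In brain Prdx2 stood at 12.55, 12.59 and 12.52 in PWS-IC del mice, against 12.31, 12.49, 12.48 and 12.53 in wild-type mice, a difference of 0.10 ± 0.10 (adjusted p = 0.669). Prdx4, the peroxiredoxin of the endoplasmic reticulum, differed by 0.15 in brain and 0.13 in muscle (adjusted p = 0.737 and 0.747). The 5 probe sets of Prdx1 also carry the symbol Gm21399 and so name no single gene; their differences lay between 0.06 and 0.31 in brain and between -0.06 and 0.18 in muscle, none past the test. Prdx5 and Prdx6 were not analysed here.

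Srxn1, sulfiredoxin, which restores over-oxidised peroxiredoxins and is an NRF2 target, stood at 9.49, 8.99 and 8.77 in PWS-IC del muscle, against 8.38, 8.62, 8.91 and 8.73 in wild-type muscle. PWS-IC del 1 was well above the other arrays, and the remaining values overlapped. The difference was 0.42 ± 0.18 (SE; interval 0.01 to 0.84; adjusted p = 0.409), it was 0.22 without PWS-IC del muscle 1, and the 4 Srxn1 probe sets ranged between -0.21 and 0.42. In brain Srxn1 stood at 10.60, 10.64 and 10.47 in PWS-IC del mice, against 10.50, 10.57, 10.50 and 10.67 in wild-type mice, a difference of 0.01 ± 0.10 (adjusted p = 0.972). Msra, which reduces oxidised methionine in proteins, had the smallest p in brain. It stood at 10.01, 10.19 and 10.35 in PWS-IC del brain, against 9.81, 9.92, 9.82 and 9.93 in wild-type brain, with no overlap. The difference was 0.31 ± 0.11 (SE; interval 0.07 to 0.56), or 1.24-fold, with unadjusted p = 0.0188 and adjusted p = 0.556. It was 0.31 without wild-type brain 1 and 2 as well.

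Msra in muscle stood at 9.06, 9.14 and 8.80 in PWS-IC del mice, against 8.80, 8.88, 8.91 and 8.98 in wild-type mice, with overlap and a difference of 0.11 ± 0.10 (adjusted p = 0.688). Glrx, glutaredoxin, which removes glutathione from protein thiols, stood at 10.66, 10.98 and 10.75 in PWS-IC del brain, against 10.25, 10.35, 10.79 and 10.69 in wild-type brain. Wild-type 1 and 2 were again the lowest, and the groups overlapped, with a difference of 0.28 ± 0.16 (adjusted p = 0.566), or 0.06 without those 2 arrays. In muscle Glrx stood at 10.14, 10.22 and 10.05 in PWS-IC del mice, against 9.89, 10.01, 10.03 and 10.19 in wild-type mice, a difference of 0.11 ± 0.09 (adjusted p = 0.655). Txn1 and Txn2, the thioredoxins of cytosol and mitochondria, differed by 0.07 and 0.08 in brain and by 0.03 and -0.07 in muscle. Their reductases Txnrd1 and Txnrd2 differed by 0.09 and 0.13 in brain and by 0.22 and 0.08 in muscle. The adjusted p-values of these 4 genes were 0.435 to 0.939 over both tissues. Txnrd1 was one of the members whose probe sets varied in size, with muscle differences of 0.22, 0.58 and 0.52.

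Glutathione is made in a pair of steps. Gclc and Gclm, the catalytic and modifier subunits of the enzyme that limits glutathione synthesis, differed by 0.11 and -0.12 in brain and by 0.11 and 0.20 in muscle, or by 0.02 and 0.04 without PWS-IC del muscle 1. Gss, glutathione synthetase, differed by 0.21 in brain and -0.03 in muscle. None of these had an adjusted p under 0.583. The second probe sets of Gclc and Gclm gave -0.14 and 0.29 in brain, each opposite in sign to the first, and 0.04 and 0.47 in muscle, none past the test. Gsr, glutathione reductase, stood at 9.26, 9.07 and 8.99 in PWS-IC del muscle, against 8.99, 8.76, 8.99 and 8.80 in wild-type muscle. The lowest PWS-IC del array and the highest wild-type arrays were equal to 2 decimals, and the difference was 0.22 ± 0.10 (adjusted p = 0.429); in brain it was 0.08 (adjusted p = 0.750).

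NRF2 and KEAP1 are the regulators of many of these genes. Nfe2l2 stood at 9.72, 9.89 and 9.48 in PWS-IC del brain, against 8.88, 9.23, 9.57 and 9.69 in wild-type brain. Wild-type 1 and 2 were the 2 lowest arrays. The difference was 0.35 ± 0.20 (SE; interval -0.10 to 0.80; adjusted p = 0.566) and was 0.06 without those 2 arrays. In muscle Nfe2l2 stood at 10.79, 10.54 and 10.17 in PWS-IC del mice, against 10.26, 10.29, 10.46 and 10.42 in wild-type mice, a difference of 0.14 ± 0.14 (adjusted p = 0.712). Keap1, the repressor of NRF2, differed by 0.02 in brain and 0.01 in muscle (adjusted p = 0.935 and 0.975). Nqo1, a quinone reductase often read as an NRF2 target, stood at 9.87, 9.35 and 9.53 in PWS-IC del muscle, against 9.47, 9.04, 9.21 and 9.34 in wild-type muscle. The groups overlapped, with a difference of 0.32 ± 0.15 (interval -0.01 to 0.65; adjusted p = 0.437), or 0.17 without PWS-IC del muscle 1. In brain Nqo1 stood at 7.88, 8.21 and 7.61 in PWS-IC del mice, against 7.18, 7.41, 7.96 and 7.95 in wild-type mice, a difference of 0.28 ± 0.22 (adjusted p = 0.628).

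Hmox1, the inducible haem oxygenase, was the only member with an unadjusted p under 0.05 in the test of genotype by tissue. It stood at 7.10, 7.0 and 7.14 in PWS-IC del muscle, against 6.97, 6.91, 6.86 and 6.72 in wild-type muscle, with no overlap. In brain it stood at 6.95, 6.96 and 7.05 in PWS-IC del mice, against 6.91, 7.12, 7.10 and 7.07 in wild-type mice, with overlap. The differences were 0.22 ± 0.09 in muscle (interval 0.02 to 0.41; adjusted p = 0.368) and -0.06 ± 0.10 in brain (adjusted p = 0.790). The brain difference minus the muscle difference was -0.28 ± 0.12 (SE), with unadjusted p = 0.0384 and adjusted p = 0.734. In that test 0 of 31 members had an adjusted p under 0.05, where 0.0803% of 14952 genes did, and 6.57% of all genes had an unadjusted p under 0.05. Hmox2, the constitutive haem oxygenase, differed by 0.17 in brain and 0.01 in muscle (adjusted p = 0.600 and 0.971).

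NRF2 with a small MAF protein binds the antioxidant response element, and the letters of its core (TGACNNNGC, either strand) were searched in the same promoter windows. A member counted if any of its windows held the core, whereas the share of all windows counts each window singly, so these are not strictly alike. Of 26 measured members with a RefSeq promoter, 6 held the core, beside 12.4% of all windows. In 5 of them it lay before a transcript start, and these 29-base stretches are shown so that the matched letters can be compared, with the core in capitals and the gene's own strand of GRCm38.p6.
Gclm, chr3:122245413-122245441, plus strand: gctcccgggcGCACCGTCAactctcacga
Mt2, chr8:94172529-94172557, plus strand: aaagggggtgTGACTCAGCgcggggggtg
Nfe2l2, chr2:75704885-75704913, minus strand: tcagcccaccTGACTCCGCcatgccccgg
Sod1, chr16:90220696-90220724, plus strand: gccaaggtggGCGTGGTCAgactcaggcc
Txnrd1, chr10:82859104-82859132, plus strand: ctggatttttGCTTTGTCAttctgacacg
Srxn1 was the other gene of the 6. Their muscle differences were 0.20 for Gclm, 0.47 for Mt2, 0.14 for Nfe2l2, 0.25 for Sod1, 0.22 for Txnrd1 and 0.42 for Srxn1, none past the test. Without PWS-IC del muscle 1 they were 0.04, 0.38, -0.0041, 0.20, 0.15 and 0.22 in the same order of genes. In brain the differences were -0.12 for Gclm, 0.16 for Mt2, 0.35 for Nfe2l2, 0.17 for Sod1, 0.09 for Txnrd1 and 0.01 for Srxn1. The metal response element core was found in 9 of the 26, counted in the same way, beside 25.7% of all windows.

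Brain and muscle were also set against each other in wild-type mice. Between wild-type brain and wild-type muscle, 23 of 31 members passed the test, where 81.6% of all genes did; 12 were higher and 11 lower in brain, against 59.2% and 22.4% of all genes. The median difference of all genes was 0.52 on the deposited values, so a gene at 0.52 was level with the typical gene. With each array centred on its median, 26 members passed, where 78.4% of all genes did; 8 were higher and 18 lower in brain, beside 34.6% and 43.8% of all genes. The median difference of all genes tested was then -0.15. Mt2 and Mt1 had the largest excess in brain of all members. Mt2 averaged 11.92 ± 0.27 in wild-type brain and 8.49 ± 0.13 in wild-type muscle (SD, n = 4 each), a difference of 3.43 ± 0.14 (SE), or 10.8-fold, with adjusted p = 5.15e-09. Mt1 averaged 12.97 ± 0.11 in wild-type brain and 9.97 ± 0.18 in wild-type muscle, a difference of 3.00 ± 0.11, or 8.01-fold, with adjusted p = 2.39e-09. Its second probe set gave a smaller difference, 1.91. Mt3, behind Gclc and Srxn1 in size, averaged 11.72 ± 0.26 in wild-type brain and 9.85 ± 0.16 in wild-type muscle, a difference of 1.87 ± 0.14 (adjusted p = 5.16e-07). After median centring the differences of Mt2, Mt1 and Mt3 were 2.75, 2.33 and 1.20, and all passed.

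The subunits of the first enzyme of glutathione synthesis were also higher in brain, Gclc by 2.06 ± 0.08 (adjusted p = 4.5e-09) and Gclm by 1.40 ± 0.08 (adjusted p = 8.81e-08). The second probe sets of Gclc and Gclm gave 2.46 and 3.01. Srxn1 was higher in brain by 1.90 ± 0.12, Prdx4 by 1.65 ± 0.17 and Msra by 0.98 ± 0.08. These 5 and the metallothioneins are the 8 members that stayed higher in brain after median centring. The members Prdx2, Hmox2, Glrx and Gpx1 were higher by 0.81, 0.72, 0.49 and 0.46 on the deposited values, but after centring by 0.13, 0.05, -0.19 and -0.21, none past the test.

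Of the 11 members lower in brain, Gpx3 had the greatest difference. It averaged 8.91 ± 0.80 in wild-type brain and 12.28 ± 0.16 in wild-type muscle, a difference of -3.36 ± 0.33 (adjusted p = 4.25e-06). The mitochondrial Prdx3, Sod2 and Txnrd2 gave -1.24 ± 0.12, -1.03 ± 0.08 and -0.78 ± 0.10, and peroxisomal Cat gave -1.09 ± 0.21, with adjusted p between 8.11e-07 and 6.03e-04. Nqo1 gave -1.64 ± 0.18, Gpx7 -1.23 ± 0.11, Nfe2l2 -1.01 ± 0.17 and Sod3 -0.97 ± 0.18 (adjusted p at most 4.68e-04). Txn2 gave -0.25 ± 0.10 (adjusted p = 0.0328) and Txnrd1 -0.36 ± 0.10 (adjusted p = 0.00697). All 11 stayed lower after centring. Probe sets disagreed for 2 of them: the other Txnrd1 probe sets gave 0.65 and 0.58, and those of Txnrd2 ranged between -0.78 and 0.44. Sod1, Gpx4, Hmox1, Gsr, Gss, Gpx8, Txn1 and Keap1 lay between -0.07 and 0.19 and did not pass on the deposited values. After centring they lay between -0.75 and -0.48, and all but Gpx8 (adjusted p = 0.0671) passed as lower in brain. Other probe sets of 3 of these genes passed as higher in brain on the deposited values. They were 3 of the 5 for Sod1 (0.65, 0.97 and 0.99) and the second of Gss (0.78) and of Txn1 (0.56). No probe set of Gpx4, Gsr or Keap1 passed. Over all 64 probe sets of the members, 46 passed, 29 higher and 17 lower in brain, where 68.9% of all probe sets passed.

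**Figure D4:**
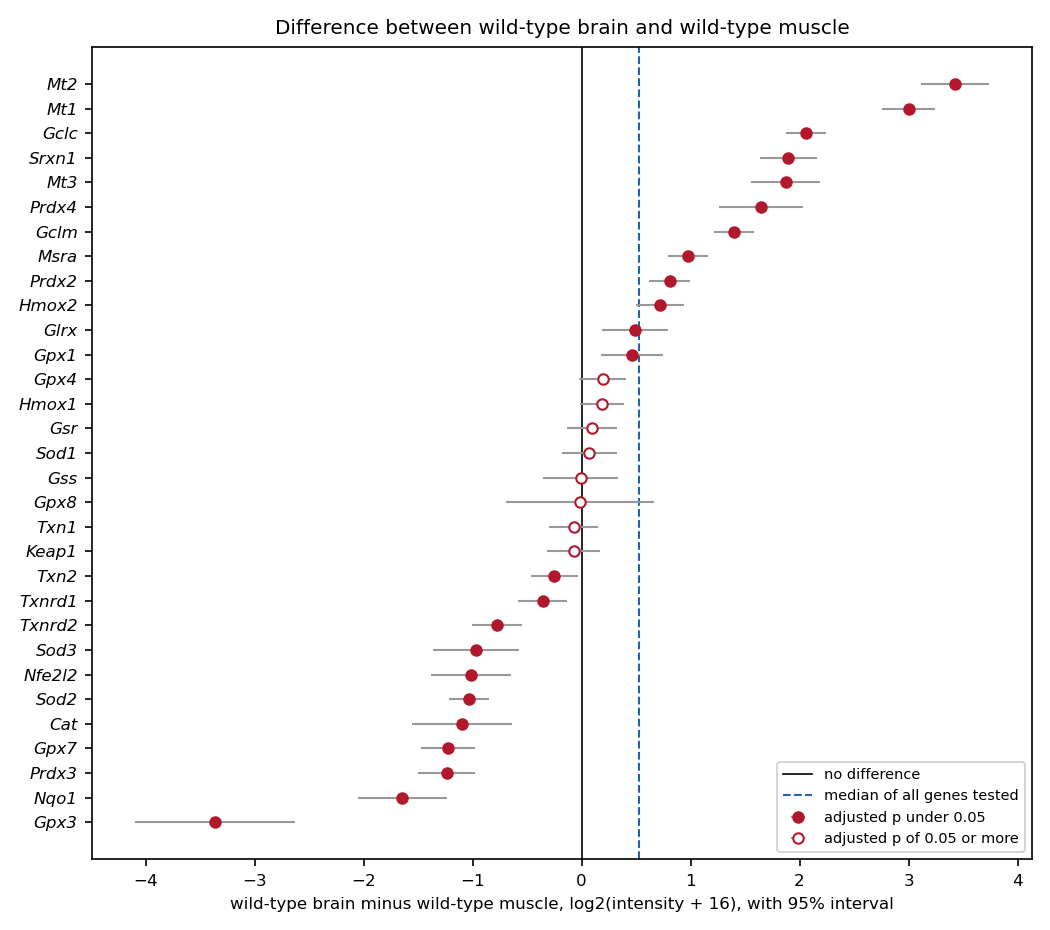
Difference between wild-type brain and wild-type muscle (x axis, log2) for each measured member, with 95% confidence intervals (4 arrays per tissue), and a line at the median of all genes, 0.52. The metallothioneins, Gclc and Srxn1 lie far to the right and Gpx3 far to the left.

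Other genes of the same pathways, counted as lists, gave 0 adjusted calls between genotypes in either tissue. Of the NRF2 targets and detoxification enzymes, 34 of 41 were tested. In brain 28 differences were positive, with a median of 0.15; those of smallest p were the glutathione transferases Gstt1 (0.54), Mgst3 (0.32) and Gstk1 (0.36), and Blvrb (0.38), a biliverdin reductase, all at adjusted p = 0.556. In muscle 25 of the 34 were positive, with a median of 0.11. Osgin1, an NRF2 target linked to growth inhibition, gave 0.67 ± 0.19 without overlap (adjusted p = 0.240), and the transferase Gstm3 gave -0.22 (adjusted p = 0.337). Among NRF2 partners and regulators, 4 of 7 tested genes were positive in brain and 4 of 7 in muscle, with medians of 0.02 and 0.01. Of them, Mafk, a small MAF partner, gave -0.21 in brain, and Cul3, the ubiquitin ligase scaffold used by KEAP1, gave 0.17 in muscle.

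The other glutathione and thioredoxin genes had negative values in muscle for the genes of smallest p. Idh2 and Nnt, which supply mitochondrial NADPH, gave -0.67 ± 0.17 (adjusted p = 0.206) and -0.50 ± 0.14 (adjusted p = 0.236). Txnip, which binds and inhibits thioredoxin, gave -0.42 ± 0.14 without overlap (adjusted p = 0.311). In this list 16 of 26 tested genes were positive in muscle (median 0.03) and 18 of 23 in brain (median 0.14), where the methionine sulfoxide reductase Msrb2 gave 0.34 ± 0.11 (adjusted p = 0.556).

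Metal handling genes were positive in 10 of 16 tested in brain and 9 of 14 in muscle, each with a median of 0.08. In muscle the copper pump Atp7a gave 0.29 ± 0.09 (adjusted p = 0.289), the copper chaperone Atox1 0.27 (adjusted p = 0.401) and Mtf1, the metal sensor itself, -0.15 ± 0.07 (adjusted p = 0.453). Across wild-type tissues 11 of the 16 were higher and 2 lower in brain, beside 59.2% and 22.4% of all genes on the same deposited values. Glucocorticoid-responsive genes, counted because glucocorticoids also induce Mt1 and Mt2, were positive in 6 of 13 in brain and in 4 of 13 in muscle, with medians of -0.03 and -0.11. In muscle Per1 gave -0.45 (adjusted p = 0.213), Sgk1 -0.33 (adjusted p = 0.254) and Fkbp5 0.40 (adjusted p = 0.397). Genes of superoxide-forming oxidases were positive in 2 of 5 tested in brain and in 5 of 7 in muscle. The neutrophil and macrophage oxidase subunits Ncf1, Cyba and Cybb gave 0.18, 0.28 and 0.30 in muscle (adjusted p = 0.351, 0.506 and 0.608).

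Markers of other cells moved between arrays as well, and their part in these values was not tested. In brain, the summed intensity of 6 of 6 choroid plexus markers was 9269, 12620 and 16705 in PWS-IC del arrays, against 4143, 4459, 15547 and 17463 in wild-type arrays. Wild-type brain 1 and 2, low for most antioxidant genes, were thus also the arrays with the least choroid plexus signal. PWS-IC del 3 and wild-type 3 did not follow, with sums of 16705 and 15547 but 13 and 12 members above the brain mean. The sum of 9 of 9 astrocyte markers was 46327, 49039 and 38788 in PWS-IC del brain, against 38768, 39756, 47123 and 45478 in wild-type brain. Wild-type 1, wild-type 2 and PWS-IC del 3, low in many members, were the 3 lowest. Wild-type 3 broke this match. It had 12 members above the brain mean, against 13 in PWS-IC del 3, yet its astrocyte sum of 47123 was exceeded only by PWS-IC del 2. The sum of 10 of 10 skeletal muscle genes in brain was 3966, 8394 and 5236 in PWS-IC del arrays, against 13247, 4459, 10559 and 4411 in wild-type arrays. This sum includes Pvalb, the only one of the 10 with a positive difference in brain (0.49), and 9 were negative. Tnnc2, Myh4 and Ckm gave -2.54, -2.61 and -2.03 without overlap (limma adjusted p = 0.556 each). Ckm stood at 6.38, 6.61 and 6.63 in PWS-IC del brain, against 10.38, 7.04, 9.61 and 7.25 in wild-type brain. Striatal genes, 6 of 7 measured, summed to 7947, 3876 and 8650 in PWS-IC del brain, against 18964, 12390, 3916 and 10599 in wild-type brain. They were highest in wild-type 1 and lowest in PWS-IC del 2, the arrays with the fewest and, with wild-type 4, the most members above the mean. Wild-type 3 and wild-type 4 broke this order. Wild-type 3 had a striatal sum close to that of PWS-IC del 2, but 12 members above the mean against 28. Wild-type 4 had a higher striatal sum than PWS-IC del 3 and also more members above the mean, 28 against 13. Endothelial markers, 8 of 8 measured, summed to 1975, 2094 and 1781 in PWS-IC del brain, against 3051, 3197, 2463 and 1910 in wild-type brain, and all 7 tested had negative differences. In muscle, the sum of 9 of 9 macrophage markers was 8848, 8296 and 5762 in PWS-IC del arrays, against 5944, 6863, 5292 and 5474 in wild-type arrays. The sum of 6 of 6 fibroblast markers was 21382, 27768 and 15365 in PWS-IC del muscle, against 18445, 22013, 15069 and 17021 in wild-type muscle. Fat cell markers, 5 of 7 measured, summed to 21591, 29492 and 8608 in PWS-IC del muscle, against 9637, 24907, 13591 and 10174 in wild-type muscle. PWS-IC del 1 and 2 were thus the highest arrays, and wild-type 2 the highest wild-type array, for macrophage markers, as they were for Gpx1, Gpx8 and Mt1. The same 3 arrays had the highest fat cell and fibroblast sums and the positive values of the first muscle component. Not every member followed them. Mt2 was higher in PWS-IC del 3 (8.92) than in PWS-IC del 2 (8.82), and Hmox1 was highest in PWS-IC del 3 (7.14). For Srxn1 the highest wild-type array was wild-type 3 (8.91). Slow and oxidative fibre genes, 9 of 9 measured, summed to 44200, 26256 and 27528 in PWS-IC del muscle, against 45368, 24234, 54793 and 51706 in wild-type muscle. Of the 9, 5 had positive and 4 negative differences in muscle. Casq2, Myh2 and Mb gave -1.03, -0.99 and -0.26 (limma adjusted p = 0.105, 0.181 and 0.290). These 3 lay wholly below wild type, as 5.86% of all genes did. The sum of the endothelial markers was 3067 to 4130 in PWS-IC del muscle and 3968 to 5164 in wild-type muscle. The cerebellar marker Gabra6 stood at 4.00, 10.91 and 4.00 in PWS-IC del brain, against 4.64, 4.00, 7.06 and 4.49 in wild-type brain. On this scale 4.00 is an intensity near 0. No marker gene of these lists that was tested passed between genotypes.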

How the data were processed

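The deposited table holds intensities, 1 per probe set and array, which the authors made with PLIER in Affymetrix Expression Console, per the submitters' processing notes; its version and settings were not given in the sources used here. No value was at or below 0. Of 45101 probe sets, 64 controls were left out; of the rest 34945 had 1 gene symbol, 932 several and 9160 none. Each gene was read from its single-symbol probe set of highest mean, as log2(intensity + 16), with no further normalization. Genes under the 0.25 quantile of mean level were not tested, leaving 13645 per tissue and 14952 for tests over both tissues; all 31 measured members passed. limma 3.58.1 (R 4.3.3; lmFit, eBayes) was fitted per tissue and over 4 groups, with Benjamini-Hochberg adjustment over all genes and a threshold of 0.05, after a test on simulated data. p-values measure the spread between these samples. An exact permutation test of 3 against 4 arrays cannot go below 0.0571 (two-sided).

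Members and lists were chosen with earlier results of these data known. Every array's value was given for Mt1, Mt2, Mt3, Sod1, Sod2, Sod3, Cat, Gpx1, Gpx3, Prdx2, Prdx3, Hmox1, Nqo1, Nfe2l2, Srxn1 and the 5 members of smallest p per tissue; those of Gsr were added after they were seen. Up to 4 genes of smallest p were eligible per pathway list. Alternatives were pseudocount, scaling, filter, probe-set averaging, intensity trend, array weights, threshold, a replicate block and leaving out arrays; leaving out PWS-IC del brain 2 with wild-type brain 3 was chosen after seeing the data. Promoters came from RefSeq tables (GRCm38.p6).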

Additional observations from a re-analysis of the deposited data

Results flagged for a closer look

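In 62 groups of 4 wild-type values (31 members in each tissue), 3 held 1 array whose gap to its nearest neighbour, as a share of the group's range, exceeded Dixon's 95% critical value for 4 samples. By the construction of that value, chance sets apart about 1 group in 20. Gpx4 in brain was 12.47 in wild-type 1, where the other 3 arrays lay between 12.73 and 12.74. Gsr in brain was 9.19 in wild-type 4, where the others lay between 8.90 and 8.92. Gpx3 in muscle was 12.52 in wild-type 1, where the others lay between 12.18 and 12.22.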

How the results depend on the processing

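The count of members that passed between genotypes stayed at 0 in brain under 20 alternatives and in the test of genotype by tissue under 23. In muscle it was 0 under 16 of 17; with array quality weights it was 5, all higher in PWS-IC del muscle (Mt1, Mt2, Gpx1, Gpx8 and Sod1), where 13.6% of all genes passed, and the cause was not tested. Over the 17 muscle alternatives the Mt2 difference was 0.38 to 0.54 (adjusted p 0.0254 to 0.395) and that of Mt1 0.28 to 0.53 (adjusted p 0.0343 to 0.608). The tissue comparison gave 22 to 26 passing members under 18 alternatives, and 22 to 24 when leaving out 1 array. In it Gpx1 turned to -0.0702 with quantile normalization and -0.213 with median centring, Glrx to -0.196 and -0.185, and Txnrd1 to 0.29 with the mean of its probe sets. Direction held in all alternatives for 15 of 31 members in brain, 21 in muscle and 20 between tissues. With the replicate number as a block, 0 members passed in brain, muscle and the test of genotype by tissue, and 22 between tissues. Same-numbered arrays did not deviate together (r = -0.06, -0.321 and -0.497 in brain, and 0.091, 0.457 and -0.036 in muscle), so the numbers were not taken as pairs. Precision is limited by the few arrays of each group.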
